A study of Columba livia with 12 samples.

Results

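The liver of the newly hatched pigeon was set against the liver of the same breed at all later ages sampled. Small RNA libraries from white king pigeons (Columba livia), a domestic breed, were made from hatchlings of 1 day (1d) and from birds aged 14 days (14d), 28 days (28d) or 2 years (2y). The first 3 ages were squabs, the nestlings of pigeons, of mixed sex, and the 2y birds were parents of both sexes. Each age had 3 libraries from 3 birds, so the hatchling liver is 3 of the 12 libraries and the later ages are the other 9. The labels name no treatment that differs between the ages, nor do they give the sex of each sequenced bird. A read count was given for 1039 mature miRNA names, and 345 had enough counts to be tested. The question was which of them are high, or low, at 1d relative to every later age.

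miRNAs are short RNAs that pair with messenger RNAs and lower their translation or stability. Each is cut from a hairpin precursor with a 5p and a 3p arm. Usually one arm, the major arm, is kept in the silencing complex and the other, the minor or passenger arm, is mostly degraded. miRNAs that share a seed, the bases near the 5′ end that pair with the target, are grouped in families. The vertebrate miR-17-92 cluster and its paralog, the miR-106-363 cluster, are known for promoting cell proliferation. Their members pair up by family: miR-106 and miR-20b resemble miR-17 and miR-20a, miR-18b resembles miR-18a, and miR-363 has the seed of miR-92. The liver of young animals still grows by cell division, and in embryos it also forms blood cells.

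Total counts were 3622530 to 4663652 per library at 1d and 3100273 to 9393075 at the later ages. Levels are CPM, read counts brought to a common library size, after scaling by TMM, a method that aligns libraries on the bulk of their miRNAs. TMM factors depended on age: they spanned 1.61 to 1.96 (1d), 1.30 to 1.56 (14d), 0.512 to 0.953 (28d) and 0.568 to 0.730 (2y). Scaling to the total count alone therefore raised the median log2 fold change of 1d over the later ages by 1.04 over all tested miRNAs, and both scalings are given where they part. The labels disagree on the youngest group: the descriptions of the libraries titled 1d replicates 2 and 3 name days 2 and 3, while their stage label is 1d. Isolated zeros were present too. In 21 cases a tested miRNA had 0 counts in 1 library and at least 50 in each of the other 2 of that age, among them miR-456-3p with 0 in 1d replicate 2 beside 3309 and 4500 in replicates 1 and 3. These cases touched 16 miRNAs, of which 0 are among the miRNAs called below. The other arm of that hairpin, miR-456-5p, had 0, 3845 and 1 counts in 1d replicates 1, 2 and 3. The arm listed with nearly all reads of miR-456 thus changed between hatchling libraries. Whether such a 0 stands for an absence of reads was not tested. The most abundant miRNA at 1d was miR-148a-3p, a hepatocyte miRNA, with 17.7 ± 2.34% of the counts (SD, n = 3).

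Of the 345 miRNAs 28 (8.12%) were called at 1d against each of 14d, 28d and 2y: 15 (4.35%) were higher and 13 (3.77%) were lower. A miRNA was called when its 3 fold changes had one sign and the largest of the 3 p-values of edgeR's quasi-likelihood test passed an adjusted p of 0.05. By the same rule with an unadjusted p under 0.05 there were 26 higher and 37 lower. All 15 high miRNAs and 12 of the 13 low ones had no overlap in CPM between the 3 hatchling libraries and the 9 later ones. Over all tested miRNAs 10.1% lay above and 11.3% below without overlap. With scaling to the total count alone, 22 were high (6.38%) and 2 low (0.58%). These held all 15 of the high set and 2 of the 13 of the low set. With relative log expression, another scaling by size factors, 23 were high and 10 low. As a share of a library's counts, the 15 high miRNAs still showed no overlap, and 5 of the low ones did not overlap, beside 16.2% above and 2.32% below over all tested. With 1d replicate 1 alone as the hatchling, the lone sample being assumed to vary like the other groups, 5 were high and 3 low. Without 28d replicate 1 there were 27 high, and without 1d replicate 1 or 2 there were 5 or 7 low. That 28d library was unlike the others of its age. Its TMM factor was 0.953, against 0.516 and 0.512 in 28d replicates 2 and 3. Its 10 most abundant miRNAs held 75.7% of the counts, against 87.3 and 85.8%. The cause was not tested. The hatchling calls were not all flat afterwards: 6 of the 28 (4 high, 2 low) also differed among 14d, 28d and 2y, as did 27.8% of all tested miRNAs.

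**Figure D1:**
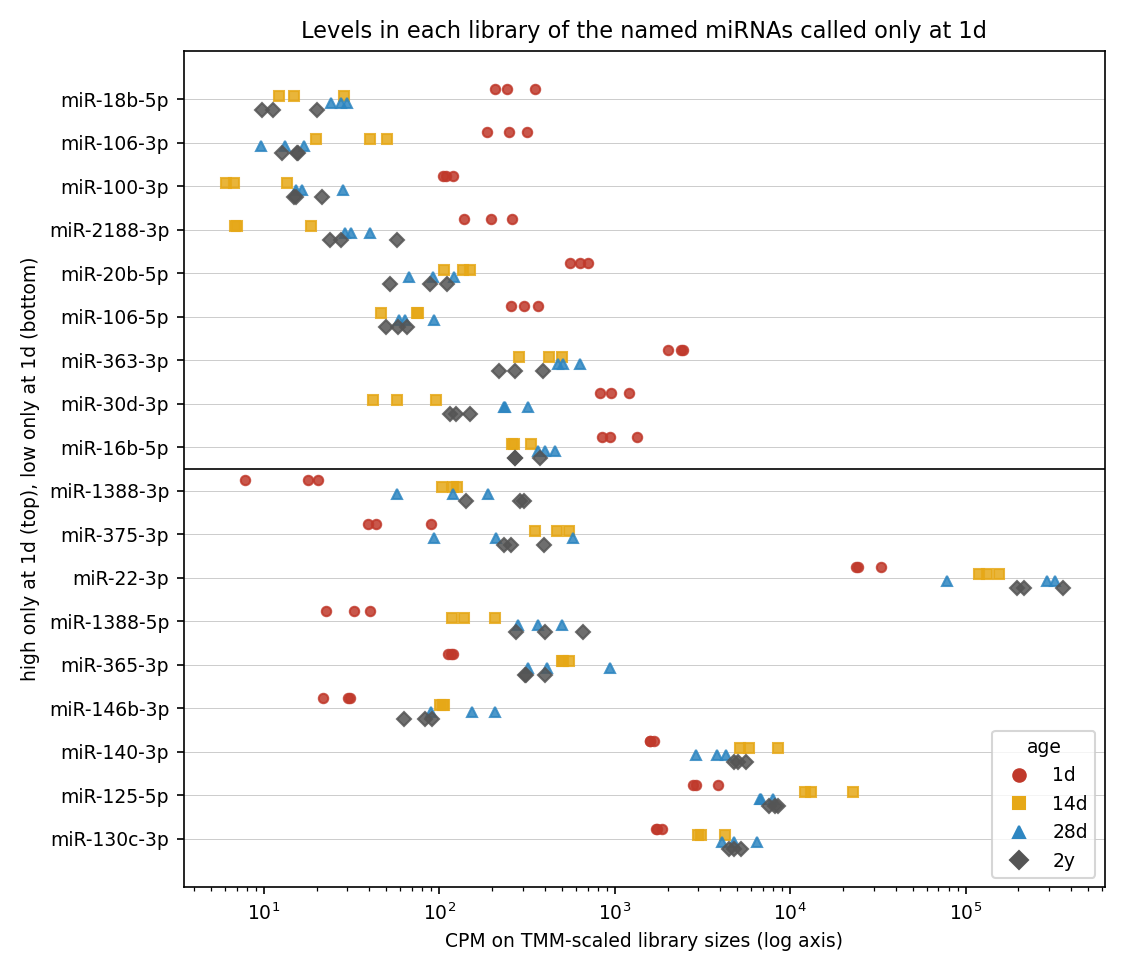
CPM (log axis) in each of the 12 libraries for the 18 called miRNAs of at least 100 CPM at some age, with 9 high only at 1d above the line and 9 low only at 1d below it. Each point is 1 library, with colour and shape giving the age. The 1d points do not overlap those of the later ages in any row, which the rule for naming miRNAs required.

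The high set was led by the miR-106-363 cluster. Of its 8 tested arms 7 were high only at 1d and 0 low, while of 11 tested arms of the miR-17-92 cluster 0 were high only at 1d and 0 low, beside 4.35% of all tested miRNAs. The miR-106-363 count of high arms was 6 without any 1 of the 1d or 14d libraries, and 6 with no filter on counts. Without 2y replicate 1 the miR-17-92 count of high arms was 1, miR-18a-5p, and without 1d replicate 3 its count of low arms was 1. Another arm of miR-17-92, miR-19a-3p, had 0, 0 and 7651 counts at 1d and 988 to 11531 at the later ages. Its zeros at 1d fall outside the isolated zeros counted above, and whether they stand for an absence of reads was not tested. The clusters were drawn up by name from their make-up in other vertebrates, and this split was chosen after values were seen, so the counts are a description. Copies of miR-19 and miR-92 that mammals carry in both clusters were counted with miR-17-92. The median log2 fold change over the mean of the later ages was 3.27 for the miR-106-363 arms, 0.48 for the miR-17-92 arms and -0.12 over all tested miRNAs. On the total count alone these medians were 4.30, 1.55 and 0.91. Since whole liver was sequenced, fewer or more cells of one type and a changed amount per cell cannot be told apart here or below.

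miR-18b-5p had 242, 353 and 208 CPM at 1d, against 9.79 to 29.7 CPM with a median of 20.1 CPM in the 9 later libraries. It was 14.1-fold above the mean of the later ages (log2 fold change 3.81 ± 0.29 SE, adjusted p = 0.00146). Every hatchling library exceeded the highest later one, which was in 28d. miR-20b-5p, of the miR-17 seed family, stood at 556, 631 and 705 CPM at 1d, against 52.4 to 151 CPM with a median of 107 CPM at the later ages. This was 6.25-fold higher (log2 fold change 2.64 ± 0.23 SE, adjusted p = 0.00170). miR-106-5p, which has the same seed, had 258, 302 and 365 CPM at 1d, against 46.8 to 93.9 CPM with a median of 63.5 CPM over the later libraries. Its difference was 4.75-fold (log2 fold change 2.25 ± 0.21 SE, adjusted p = 0.00146), and the later ages lay close together. miR-363-3p was the most abundant member of the cluster, at 2402, 2455 and 2025 CPM at 1d, against 219 to 635 CPM with a median of 420.4 CPM in the 9 later libraries. It was 5.76-fold higher at 1d (log2 fold change 2.53 ± 0.21 SE, adjusted p = 0.00146). The lowest hatchling value was more than 3 times the highest later value, which was 28d replicate 1.

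The minor arms of the same hairpins were high as well. miR-106-3p had 251, 187 and 315 CPM at 1d, against 9.62 to 50.1 CPM with a median of 15.7 CPM at the later ages, and was 13.0-fold higher (log2 fold change 3.71 ± 0.27 SE, adjusted p = 0.00146). It also differed among the later ages (adjusted p = 0.0166), with 14d above 28d and 2y. miR-363-5p was at 60.7, 66.5 and 66.0 CPM at 1d, against 0.924 to 8.60 CPM with a median of 2.81 CPM over the later libraries; it was 17.7-fold higher (adjusted p = 0.00402), with a log2 fold change of 4.14, or 4.74 without 28d replicate 1. miR-20b-3p had 17.9, 20.7 and 25.9 CPM at 1d, against 0.616 to 6.63 CPM with a median of 2.96 CPM in the 9 later libraries, a 7.16-fold difference (adjusted p = 0.0298) whose call ended without any 1 of the 1d or 14d libraries (adjusted p 0.0597 to 0.0997). The 1 arm of the cluster that was not called, miR-18b-3p, had 10.0, 11.7 and 17.1 CPM at 1d, against 0.116 to 9.01 CPM with a median of 0.554 CPM at the later ages (adjusted p = 0.50). For miR-106, miR-20b and miR-363 both arms thus passed. All 8 arms together held 0.742, 0.651 and 0.599% of the counts at 1d, against 0.0252 to 0.105% (median 0.0377%) in the later libraries. The miR-17-92 arms held 3.60, 4.11 and 4.28% at 1d and 0.552 to 10.1% later, and the 14d libraries, at 10.1, 5.61 and 3.15%, overlapped those at 1d. Most of this share was miR-92-3p, with 109946, 169632 and 150206 counts at 1d and 365865, 307257 and 206356 at 14d. The overlap with 14d thus describes mainly that miRNA, and the share of the other arms alone was not computed.

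A ratio of 2 miRNAs within a library does not depend on how libraries are scaled. The pairs were picked after the levels had been seen, and the ratios are given without a test. Reads of miR-20b-5p per read of miR-20a-5p were 1.20, 1.12 and 1.07 at 1d, against 0.0653 to 0.509 with a median of 0.141 in the later libraries. The count ratio of miR-106-5p to miR-17-5p was 0.306, 0.321 and 0.292 at 1d, against 0.0483 to 0.101 with a median of 0.0747 in the later libraries. In both pairs the hatchling libraries did not overlap the others, and for miR-20b the 14d libraries lay between 1d and the older ages. miR-18b-5p over miR-18a-5p was 1.75, 2.36 and 1.26 at 1d, against 0.268 to 0.534 with a median of 0.341 in the later libraries, leaving out 2y replicate 1, where miR-18a-5p was listed at 0. miR-363-3p over miR-92-3p was 0.155, 0.109 and 0.0970 at 1d, against 0.00561 to 0.198 with a median of 0.0259 in the later libraries and overlapped, since 28d replicate 1 had the highest value of all. For 10 of the 11 tested miR-17-92 arms themselves the CPM at 1d overlapped those of the later libraries. The exception was miR-18a-5p, with 138, 149 and 165 CPM at 1d, against 0 to 89.9 CPM with a median of 53.6 CPM at the later ages. It was not called with all libraries (adjusted p = 1.00), but was without 2y replicate 1, the library where it was listed at 0 (adjusted p = 0.0493). miR-17-5p had 843, 942 and 1250.5 CPM at 1d, against 622 to 1205 CPM with a median of 978 CPM over the later libraries; its log2 fold change over the mean of the later ages was 0.17 with TMM and 1.17 on the total count. miR-20a-5p had 463, 563 and 659 CPM at 1d, against 247 to 965 CPM with a median of 659 CPM in the 9 later libraries, with -0.03 and 0.98 on these scales, so its sign turned with the scaling. Close relatives such as miR-17, miR-106 and miR-20b can share reads, and how such reads were counted is not given in the sources used here, so their separate levels are uncertain.

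**Figure D2:**
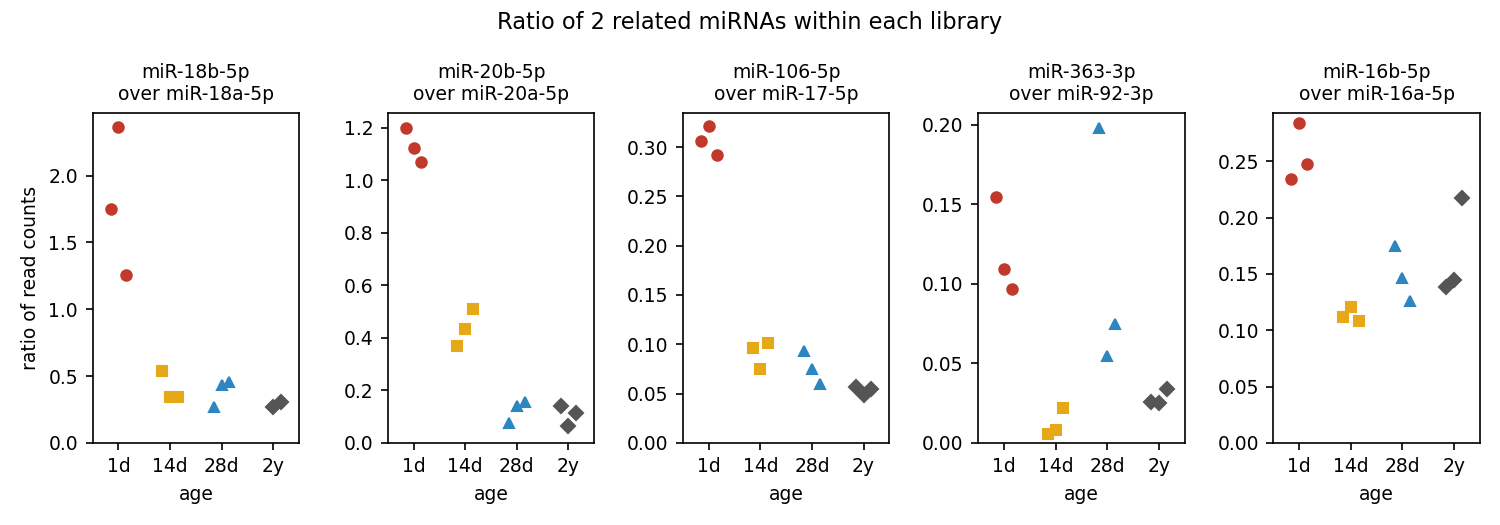
Ratio of read counts of 2 related miRNAs within each library, by age (1 point per library, axes from 0, the pair named above each panel, 3 libraries per age but 2 at 2y for miR-18b-5p). The 1d points lie above all later points in 4 of the 5 panels, and in the miR-363-3p panel 28d replicate 1, at 0.198, exceeds them.

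The miR-15/16 family restrains the cell cycle in mammals by targeting cyclin mRNAs. Of its 10 tested arms 2 were high only at 1d, 0 were low and 8 did not pass. Over all tested miRNAs 4.35% were high and 3.77% low. The family's median log2 fold change was 1.02, beside -0.12 over all tested miRNAs. miR-16b-5p had 847, 1349 and 939 CPM at 1d, against 260.0 to 454 CPM with a median of 332 CPM at the later ages. It was 3.17-fold higher (log2 fold change 1.67 ± 0.18 SE, adjusted p = 0.00525), and the hatchling libraries did not overlap the later ones. The related miR-16a-5p was more abundant, at 3613, 4746 and 3793 CPM at 1d, against 1731 to 2971 CPM with a median of 2469 CPM over the later libraries, and did not pass with TMM (adjusted p = 0.102) but did on the total count alone (adjusted p = 0.0488). The ratio of miR-16b-5p to miR-16a-5p was 0.234, 0.284 and 0.248 at 1d, against 0.108 to 0.217 with a median of 0.138 in the later libraries. Both were thus on the same side at 1d, miR-16b-5p by more. The other called arm was miR-15c-3p, a minor arm, with 12, 13.1 and 9.87 CPM at 1d, against 0.308 to 2.25 CPM with a median of 0.658 CPM in the 9 later libraries (adjusted p = 0.00978). It had enough counts to be tested only through the 1d libraries.

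The rest of the high set held several minor arms. Of the 15 high miRNAs 14 have both arms tested, and in 9 of these 14 the called arm was the minor one. In the low set this was so for 4 of 10, and over all tested miRNAs with both arms for 103 of 206. miR-101-5p had 46.1, 46.6 and 58.2 CPM at 1d, against 1.19 to 3.75 CPM with a median of 1.86 CPM at the later ages. This 23.4-fold difference (log2 fold change 4.55 ± 0.25 SE, adjusted p = 0.000276) had the smallest adjusted p of all tested miRNAs, and every later library lay far below the hatchling ones. Its major arm, miR-101-3p, known in mammals to target the chromatin regulator EZH2, had a log2 fold change over the later mean of -0.66 with TMM and 0.34 on the total count, and its hatchling libraries lay between those of 14d and those of 28d and 2y. miR-30d-3p stood at 1199, 821 and 946 CPM at 1d, against 41.7 to 322 CPM with a median of 125 CPM over the later libraries, 7.58-fold higher (log2 fold change 2.92 ± 0.23 SE, adjusted p = 0.00402). Its later levels differed with age (adjusted p = 0.00282), lowest at 14d. The major arm miR-30d-5p, the fifth most abundant miRNA at 1d, had 23626, 20478 and 42401 CPM at 1d, against 24891 to 88157 CPM with a median of 38658 CPM in the 9 later libraries, and the ages overlapped.

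miR-100-3p, partner of a miRNA known in mammals to target mTOR, had 106, 109 and 119 CPM at 1d, against 6.06 to 28.3 CPM with a median of 15.2 CPM at the later ages (7.70-fold higher, adjusted p = 0.00278). The major arm miR-100-5p had 4916, 4446 and 5332 CPM at 1d, against 6767 to 34404 CPM with a median of 8966 CPM over the later libraries, and did not pass (adjusted p = 1.00). In CPM the 2 arms of this hairpin lay on opposite sides of the later libraries. On the total count the major arm's log2 fold changes over 14d, 28d and 2y were -0.86, -0.73 and 0.87, so its sign turned at 2y. miR-2188-3p, of a miRNA named in fish, frogs and birds, was at 196, 259 and 138 CPM at 1d, against 6.84 to 57.4 CPM with a median of 27.7 CPM in the 9 later libraries (8.35-fold higher, adjusted p = 0.0103). Its other arm miR-2188-5p, at 1281, 1964 and 846 CPM at 1d, against 229.8 to 2109 CPM with a median of 532 CPM at the later ages, did not pass. miR-130a-5p, a minor arm chosen after its values were seen, was at 11.6, 16.1 and 18.2 CPM at 1d, against 1.16 to 3.88 CPM with a median of 3.19 CPM over the later libraries. Its call (adjusted p = 0.0194) ended without any 1 of 8 libraries, these being the 3 of 1d, 14d replicates 2 and 3 and the 3 of 2y (adjusted p 0.0521 to 0.0862). The last of the high set was a conserved name, miR-2399-5p, with 95, 179 and 58 counts at 1d and 0 in all 9 later libraries. It had enough counts to be tested only through the 1d libraries, so it could come out only high or uncalled. Taking 3 counts as the floor in each later library, it was at least 22.3-fold higher. It lost its call when any 1 hatchling library was left out (adjusted p 0.0605 to 0.120).

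The balance of the 2 arms was then tested directly, as the log2 ratio of 5p to 3p counts within a library (limma, pseudocount 0.5, 103 hairpins). In 7 hairpins (6.8%) the ratio at 1d differed from each later age, and in all 7 the minor arm held more at 1d. In 2 (1.94%) the ratio of 5p to 3p was higher and in 5 (4.85%) lower. Over all 103 hairpins the median log2 ratio of minor to major arm was higher by 0.35 at 1d than over the later ages, and 67 were higher. For miR-456, tested but not called, the arm listed with nearly all reads changed between libraries of 1d, 14d and 2y. In miR-101 the minor arm made up 1.21, 0.961 and 1.38% at 1d, against 0.0133 to 0.0833% with a median of 0.0249% in the 9 later libraries (log2 ratio of minor to major arm higher by 5.16 ± 0.23 SE, adjusted p = 1.89e-06). In miR-30d it made up 4.83, 3.86 and 2.18% at 1d, against 0.0883 to 0.842% with a median of 0.386% in the 9 later libraries (log2 ratio of minor to major arm higher by 3.57 ± 0.27 SE, adjusted p = 0.000743). Both hairpins keep their major arm in great excess at every age. The minor share of miR-100 was 2.10, 2.39 and 2.19% at 1d, against 0.0482 to 0.299% with a median of 0.178% in the 9 later libraries (log2 ratio of minor to major arm higher by 4.06 ± 0.45 SE, adjusted p = 0.00229). For miR-130a it was 1.16, 1.55 and 1.58% at 1d, against 0.0471 to 0.229% with a median of 0.196% in the 9 later libraries (log2 ratio of minor to major arm higher by 3.12 ± 0.38 SE, adjusted p = 0.00229). In these 4 hairpins the hatchling libraries did not overlap any later library.

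The other 3 called hairpins were miR-15b, miR-15c and miR-26. miR-15b had 0 counts on both arms in 1d replicate 2, both among the isolated zeros. With the pseudocount this library entered the fit as a log2 ratio of 0, as if the arms were equal. In 1d replicates 1 and 3 its minor arm made up 5.35 and 5.96%, against 0 to 0.613% later. The log2 ratio of minor to major arm was higher by 5.71 in the fit (adjusted p = 0.00778) and by 4.36 without 1d replicate 2. It was also moved by leaving out 1d replicate 1 or 3, which put it at 6.43 or 6.34. miR-15c (log2 ratio of minor to major arm higher by 2.72 ± 0.38 SE, adjusted p = 0.0216) was no longer called once 1d replicate 1, 1d replicate 2, 28d replicate 2 or 28d replicate 3 was left out (adjusted p 0.0515 to 0.119) and with a pseudocount of 5. miR-26 (log2 ratio of minor to major arm higher by 3.38 ± 0.33 SE, adjusted p = 0.0329) lost it without 1d replicate 1 or 3 or any 1 of the 14d or 2y libraries (adjusted p 0.0540 to 0.151). The minor arm of miR-26 made up 0.362, 0.246 and 0.392% at 1d, against 0.0109 to 0.117% with a median of 0.0185% in the 9 later libraries. Leaving out 28d replicate 1 gave 13 called hairpins, and 1d replicate 1 alone gave 2, while requiring a mean of 50 counts on both arms gave 3. The median minor share over hairpins was 3.85 to 4.84% in the 1d libraries and 1.99 to 4.62% in the later ones. The 1d libraries overlapped those of 14d (3.40 to 4.62%) and lay above all of 28d and 2y (1.99 to 2.90%). The part of the overall minor share in the 7 calls was not tested.

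**Figure D3:**
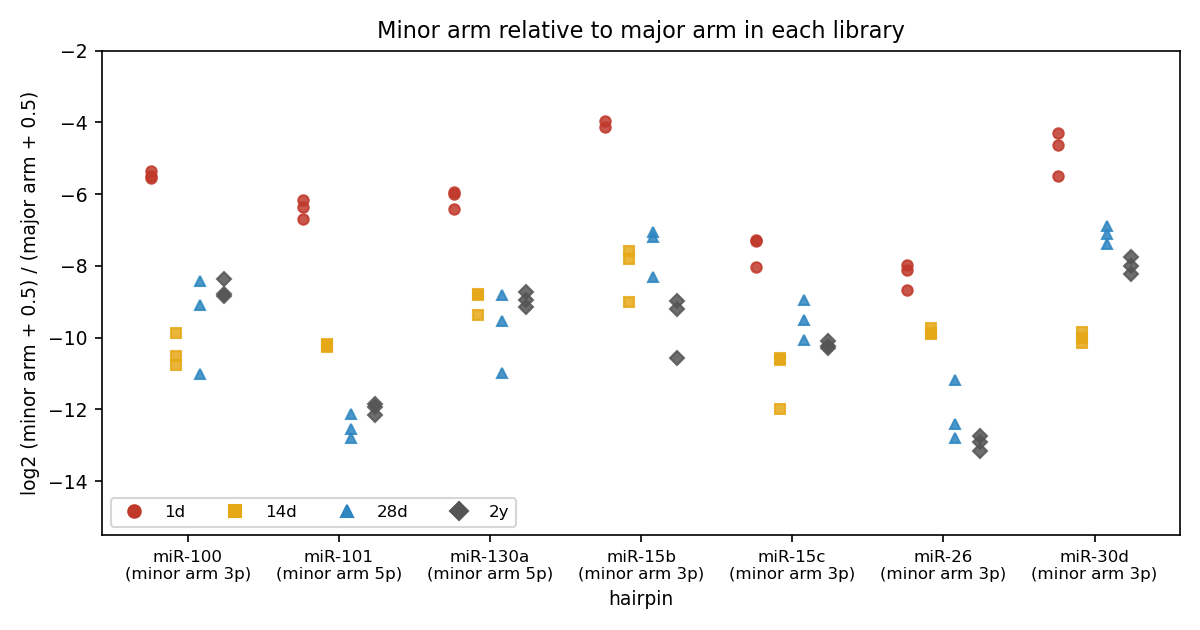
Log2 ratio of minor to major arm, with 0.5 added to each count, in each library (1 point each, colour and shape by age) for the 7 called hairpins. The 1d points lie above every later point in all 7, and the 1d replicate with 0 counts on both arms of miR-15b is not drawn.

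The most abundant miRNA of the low set was miR-22-3p, known in mammals to be abundant in liver and to act on metabolic regulators. It had 23638, 32785 and 24235 CPM at 1d, against 78803 to 358255 CPM with a median of 196816 CPM in the 9 later libraries. It was 7.45-fold lower at 1d (log2 fold change -2.90 ± 0.44 SE, adjusted p = 0.0103). As shares of a library these were 4.60 ± 0.703% in hatchlings, 18.8 ± 2.84% (14d), 13.0 ± 4.83% (28d) and 16.7 ± 3.21% (2y) (SD, n = 3 each). It was also low on the total count alone (adjusted p = 0.00832, log2 fold changes -2.03, -1.50 and -1.86 over 14d, 28d and 2y). Its TMM call ended without 1d replicate 1 (adjusted p = 0.0593). The minor arm miR-22-5p was low as well, at 9.18, 8.62 and 9.45 CPM at 1d, against 20.9 to 47.4 CPM with a median of 27.2 CPM at the later ages, with an adjusted p of 0.0111. That call ended when either of 1d replicates 1 and 2 was left out (adjusted p 0.0550 to 0.0556), and on the total count (adjusted p = 1.00), where its log2 fold change over the mean of the later ages was -0.68.

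Both arms of miR-1388, a miRNA named in fish and birds, were low at 1d. miR-1388-5p had 40.5, 22.7 and 32.8 CPM at 1d, against 118 to 662 CPM with a median of 281 CPM over the later libraries. It was 9.31-fold lower (log2 fold change -3.22 ± 0.39 SE, adjusted p = 0.00520) and continued to differ among the later ages (adjusted p = 0.0323), lowest at 14d. miR-1388-3p had 20.5, 7.83 and 17.9 CPM at 1d, against 57.6 to 304 CPM with a median of 126 CPM in the 9 later libraries, 9.82-fold lower (log2 fold change -3.30 ± 0.49 SE, adjusted p = 0.00520). Both arms stayed called whichever single library was left out. On the total count alone their log2 fold changes over 14d, 28d and 2y kept their sign, at -1.93, -2.27 and -2.45 for the 5p arm and -2.58, -1.39 and -2.64 for the 3p arm, without passing (adjusted p = 0.0731 and 0.177).

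**Figure D4:**
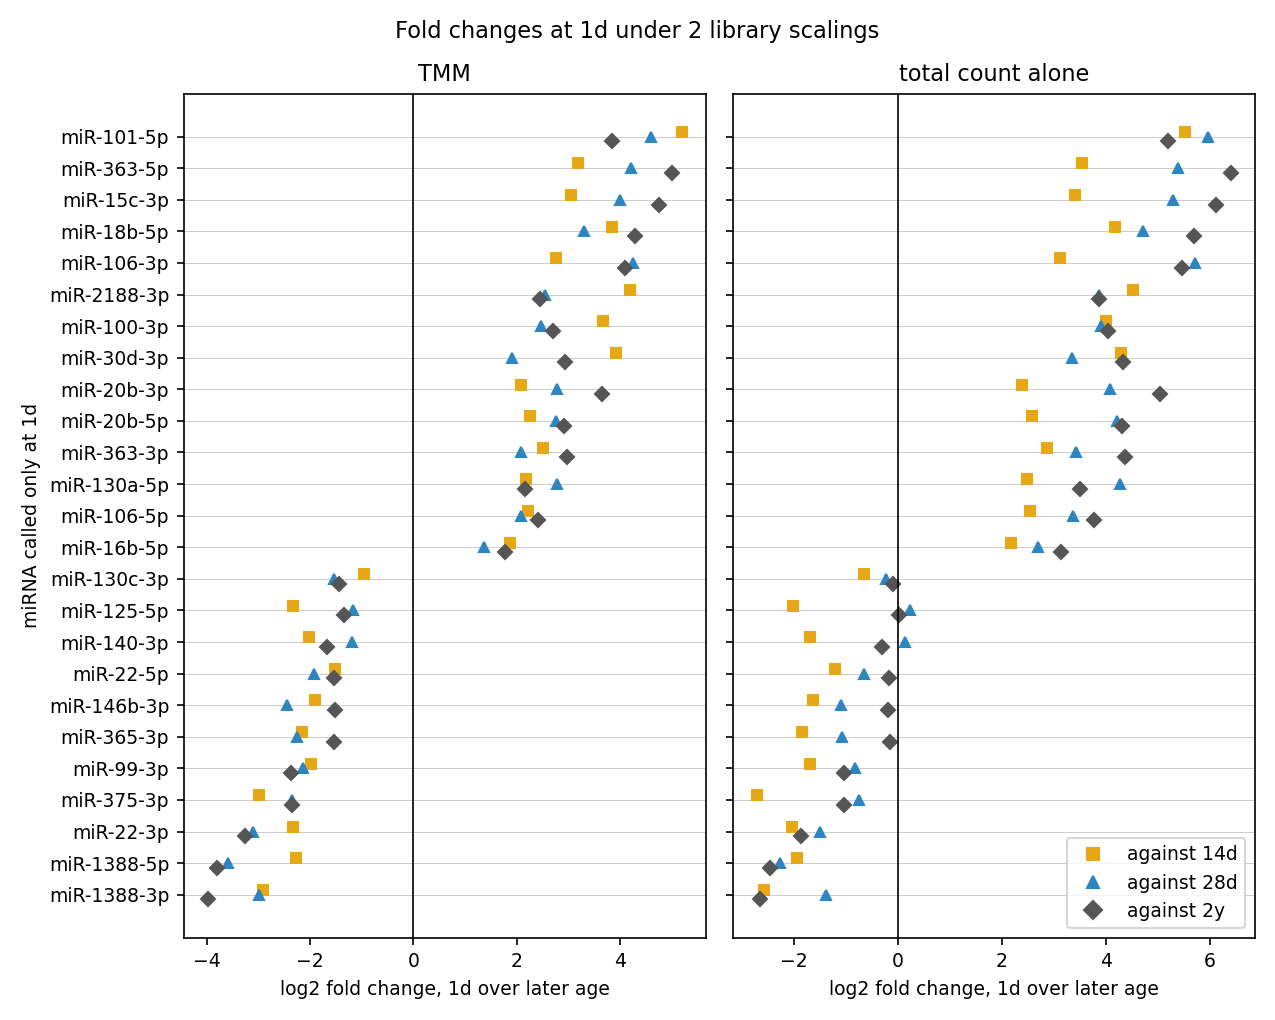
Fitted log2 fold change of 1d over 14d, 28d and 2y (x axes) for 25 of the 28 called miRNAs, leaving out the 3 conserved or predicted names that are at or near 0 on one side, with TMM (left panel) and with the total count alone (right panel). The high set is above 0 in both panels, while miR-125-5p against 28d and 2y and miR-140-3p against 28d cross 0 on the total count.

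The miR-10 and miR-99 group, which also takes in miR-100 and miR-125 and of which several members lie beside Hox genes or let-7 in vertebrate genomes, had members on both sides. Of 9 tested arms 1 was high (miR-100-3p), 2 were low and 6 did not pass. Over all tested miRNAs 4.35% were high and 3.77% low. The group's median log2 fold change was -1.25 with TMM and -0.24 on the total count. miR-99-3p, a minor arm, had 9.18, 11.0 and 14.9 CPM at 1d, against 39.5 to 60.8 CPM with a median of 57.3 CPM at the later ages. It was 4.49-fold lower (log2 fold change -2.17 ± 0.24 SE, adjusted p = 0.00146) and stayed called whichever library was left out, but not on the total count (adjusted p = 0.323). The major arm miR-99-5p had 135, 124 and 183 CPM at 1d, against 295 to 3467 CPM with a median of 381 CPM over the later libraries, the highest value being 28d replicate 1, and did not pass (adjusted p = 0.513). miR-125-5p had 2918, 2785 and 3879 CPM at 1d, against 6731 to 22879.7 CPM with a median of 8247 CPM in the 9 later libraries. It was 3.06-fold lower with TMM (log2 fold change -1.61 ± 0.23 SE, adjusted p = 0.0163), yet on the total count its log2 fold changes over 14d, 28d and 2y were -2.01, 0.23 and 0.02, so the direction held only against 14d. The call was lost when 1d replicate 1, 1d replicate 2 or 28d replicate 2 was left out (adjusted p 0.0513 to 0.0814), and it was highest at 14d among the later ages (adjusted p = 0.00993).

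miR-140-3p, known in mammals from cartilage, had 1583, 1598 and 1675 CPM at 1d, against 2921 to 8575 CPM with a median of 5026 CPM at the later ages. It was 3.08-fold lower with TMM (log2 fold change -1.62 ± 0.20 SE, adjusted p = 0.00835), but its sign turned against 28d on the total count (log2 fold changes -1.68, 0.14 and -0.29). Without 28d replicate 1 its adjusted p was 0.0533. miR-365-3p had 117, 113 and 120.4 CPM at 1d, against 308 to 943 CPM with a median of 411 CPM over the later libraries, 3.96-fold lower (log2 fold change -1.99 ± 0.32 SE, adjusted p = 0.0194). The hatchling values were close to each other, and the call ended without any 1 of the 1d libraries or 2y replicate 3 (adjusted p 0.0625 to 0.0876). miR-130c-3p, of the seed family of miR-130 and miR-301, had 1739.8, 1717 and 1858 CPM at 1d, against 2988 to 6483 CPM with a median of 4496 CPM in the 9 later libraries, 2.49-fold lower (log2 fold change -1.31 ± 0.19 SE, adjusted p = 0.0189). It was not called once 1d replicate 1, 1d replicate 2, 14d replicate 3 or 28d replicate 1 was dropped (adjusted p 0.0797 to 0.142). For miR-365-3p and miR-130c-3p the signs held on the total count without passing. In the seed family of miR-130 and miR-301, 1 of 10 tested arms was high (miR-130a-5p), 1 low and 8 did not pass. Over all tested miRNAs 4.35% were high and 3.77% low. The family's median log2 fold change was 0.46 with TMM and 1.51 on the total count.

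miR-375-3p, best known in mammals from pancreatic islets, had 39.1, 43.4 and 90.2 CPM at 1d, against 92.8 to 576 CPM with a median of 351 CPM at the later ages. It was 5.91-fold lower (log2 fold change -2.56 ± 0.56 SE, adjusted p = 0.0387). The highest hatchling value, in replicate 3, was just under the lowest later one, in 28d replicate 1. Its call ended without any 1 of 10 libraries (adjusted p 0.0518 to 0.174) and stood only when 1d replicate 3 or 28d replicate 1 was the one left out. It was 1 of 4 tested arms in the pancreas list, where the other 3 did not pass, beside 3.77% low of all tested miRNAs. miR-146b-3p, of a family known from inflammatory signalling, had 21.9, 30.9 and 30.0 CPM at 1d, against 62.6 to 207 CPM with a median of 101 CPM over the later libraries, 3.88-fold lower (log2 fold change -1.96 ± 0.28 SE, adjusted p = 0.0112). Without 1d replicate 1 its adjusted p was 0.0650. On the total count alone the signs of miR-375-3p and miR-146b-3p held against each later age, and neither passed.

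A conserved and a predicted name complete the low set. The conserved name miR-5589-5p had 0, 6 and 0 counts at 1d and 128 to 577 counts in each later library. It passed under both scalings (adjusted p = 0.00402 with TMM and 0.00383 on the total count). Its fitted log2 fold change was -7.53, or -11.37 without 1d replicate 2, and a fitted value this near 0 depends on the prior count. The predicted name miR-16-3p, which carries only a serial number and is not the miR-16 of the family above, had 0 counts in all 1d libraries and 0 to 123 later. With 3 counts taken as the floor in each 1d library, it was at least 17.8-fold lower at 1d than the mean of the later libraries. Its call ended when either of 1d replicates 1 and 2 was dropped (adjusted p 0.0556 to 0.0593). This predicted name and miR-5589-5p had enough counts to be tested only through the later libraries. Each could thus come out only low or uncalled. Over the whole table, 95 of the 611 names with a count at 1d had none at another age. Of these 6 had at least 3 counts in every 1d library, and miR-2399-5p was the most abundant of them. The same count was 157 of 711 names at 14d, 63 of 515 at 28d and 21 of 484 at 2y. Names with at least 3 counts in every library of their age numbered 8 among those found only at 14d, 0 at 28d and 0 at 2y.

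Where both arms of a called hairpin could be tested, 19 of 23 hairpins, 5 were called on both arms the same way, 0 on opposite sides and 14 on 1 arm only. The 5 were miR-106, miR-20b and miR-363 (high) and miR-22 and miR-1388 (low). An arm that did not pass is not thereby shown to be level.

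The 5 most abundant miRNAs of the hatchling liver were not among the calls. Their shares of counts are means ± SD with n = 3 per age. miR-148a-3p held 17.7 ± 2.34% in hatchlings, 5.97 ± 0.393% (14d), 20.8 ± 4.25% (28d) and 17.3 ± 1.30% (2y). miR-26-5p, of a family known to restrain the cell cycle in mammalian liver, held 12.4 ± 2.16% in hatchlings, 16.8 ± 4.19% (14d), 20.4 ± 5.68% (28d) and 21.4 ± 3.48% (2y). The hatchling share of miR-148a-3p lay among those of 28d and 2y, and the mean share of miR-26-5p was lower at 1d than at any later age. In CPM the scalings parted: miR-148a-3p had 82452 to 126004 CPM at 1d, below the 200766 to 498335 CPM of 28d and 2y. miR-26-5p had 61878 to 82199 CPM at 1d, below every later library (92212 to 502358 CPM). miR-30e-5p held 10.6 ± 2.25% in hatchlings, 2.16 ± 0.440% (14d), 5.33 ± 3.80% (28d) and 4.33 ± 0.322% (2y). miR-143-3p, a mesenchymal and smooth muscle miRNA, held 6.83 ± 0.736% in hatchlings, 2.73 ± 0.610% (14d), 9.41 ± 3.33% (28d) and 13.2 ± 3.42% (2y). Both were lowest at 14d. In CPM miR-30e-5p had 52325 to 80572 CPM at 1d, overlapping the 59868 to 101928 CPM of 28d and 2y. miR-30d-5p held 4.91 ± 1.77% in hatchlings, 8.90 ± 2.42% (14d), 2.35 ± 0.646% (28d) and 2.24 ± 0.488% (2y). Against each later age the adjusted p of these 5 was 0.417 or higher.

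Set against the mean of the later ages instead of each of them, 44 miRNAs (12.8%) were higher and 56 (16.2%) lower at 1d, and on the total count alone 108 (31.3%) were higher and 14 (4.06%) lower. With relative log expression 53 were higher and 42 lower. This comparison can be carried by 1 or 2 of the later ages. The families of miR-221, miR-222 and miR-29 are given here, chosen after their values were seen. All 4 tested arms of miR-221 and miR-222a, miRNAs known to promote proliferation of mammalian liver cells, were higher at 1d than the later mean, though 0 of 4 passed against each age with TMM and 2 of 4 (miR-221-3p and miR-222a-5p) did on the total count. miR-222a-3p had 9660.1, 13365 and 23496 CPM at 1d, against 360.4 to 8029 CPM with a median of 1281 CPM in the 9 later libraries, with the 14d libraries next to the hatchling ones (log2 fold change over the mean 3.15 ± 0.41 SE, adjusted p for the mean = 0.000233). The family held 2.42 to 4.60% of counts at 1d and 0.0703 to 1.28% in the later libraries, without overlap. All 4 tested arms of miR-29, which targets collagen mRNAs in mammals, were lower at 1d than the later mean, and 0 passed against each age. miR-29a-3p had 112, 143 and 183 CPM at 1d, against 225 to 2030.3 CPM with a median of 925 CPM at the later ages (log2 fold change over the mean -2.47 ± 0.28 SE, adjusted p for the mean = 8.74e-05). The family's median log2 fold change was -2.60, and -1.62 on the total count.

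miRNA lists of the cell types that a liver sample can hold were read beside the 8.12% of all tested miRNAs that were called against each later age, and the 12.8% that were high and 16.2% that were low at 1d against the mean of the later ages. Of the 6 tested arms of the hepatocyte list (miR-148a, miR-194, miR-215 and miR-101) 1 was high, the minor arm miR-101-5p, and 0 were low. The hepatocyte markers planned were miR-148a, miR-194 and miR-215 only, and no arm of these was called. The counts, medians and shares of this list include miR-101. Against the mean of the later ages 2 of the 6 were high and 3 low, with a median log2 fold change of -0.63 with TMM and 0.40 on the total count. The list held 17.0 to 21.3% of counts at 1d and 5.99 to 26.4% in the later libraries, and miR-148a-3p was present in every library. miR-194-5p, at 3.53, 3.05 and 1.95 CPM at 1d, against 4.16 to 185 CPM with a median of 34.0 CPM over the later libraries, and miR-215-5p, at 36.2, 31.6 and 18.2 CPM at 1d, against 48.0 to 3327 CPM with a median of 373 CPM in the 9 later libraries, did not pass against each age, although no later library was as low as the hatchling ones. Of 11 leukocyte arms 0 were high and 1, miR-146b-3p, was low, and the list held 2.67 to 4.97% of counts at 1d and 1.53 to 8.99% in the later libraries. Against the mean of the later ages 6 of the 11 were low and 0 high, with a median log2 fold change of -0.79 with TMM and 0.18 on the total count, so the sign turned. Of 9 mesenchymal arms 0 were called against each later age, but 6 were low and 0 high against their mean. Their median log2 fold change was -1.23 with TMM and -0.22 on the total count, and the list held 7.79 to 9.47% of counts at 1d and 3.85 to 19.1% in the later libraries. The 2 endothelial arms, both of miR-126, were not called, and held 2.98 to 5.09% of counts at 1d and 1.92 to 4.09% in the later libraries. The biliary and other epithelial, muscle and neural lists had 11, 7 and 6 tested arms with 0 called against each later age. Against the mean of the later ages 1 epithelial arm was high and 3 were low, and 0 arms of the endothelial, muscle and neural lists passed. The epithelial list held 0.121 to 0.139% of counts at 1d and 0.0372 to 0.458% in the later libraries, the muscle list 0.102 to 0.373% of counts at 1d and 0.0343 to 0.540% in the later libraries and the neural list 0.605 to 0.693% of counts at 1d and 0.138 to 1.65% in the later libraries. Most of the neural share was miR-128-3p, with 22444, 30643 and 24171 counts at 1d. In the same libraries miR-9-5p had 468, 491 and 1794 counts and miR-124-3p 32, 41 and 77. The neural share thus describes mainly miR-128-3p. The erythroid markers of a blood-forming liver were not analysed here. The part of cell composition in the called miRNAs was not tested.

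Other families were mostly uncalled. Of 14 let-7 arms, which increase with developmental time in many animals, 0 were called in either direction with TMM. On the total count 1, let-7f-3p, was high, beside 6.38% of all tested miRNAs. Their median log2 fold change was -0.29 with TMM and 0.75 on the total count, so the sign turned. Over all tested miRNAs these medians were -0.12 and 0.91. The let-7 share was 2.25 to 2.73% at 1d and 0.616 to 3.96% later. Of 8 miR-30 arms 1 was high, miR-30d-3p, beside 4.35% of all tested miRNAs. Of 13 arms in a list of miR-1388, miR-2188, miR-456, miR-460, miR-1306 and miR-1662, most of them known from non-mammalian vertebrates, 1 was high, miR-2188-3p, and 2 were low, both of miR-1388, beside 4.35% high and 3.77% low of all tested miRNAs. The lists for miR-34, lipid metabolism, miR-181, miR-23/24/27, miR-21 and miR-2954 held 6, 6, 4, 3, 2 and 2 tested arms, with 0 called. No member of the embryonic list had enough counts to be tested.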

How the data were processed

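Small RNA of 10 to 45 nt from total liver RNA was sequenced as 50 bp single-end reads on an Illumina instrument, each library from 1 pigeon, per the labels' protocols. The submitters' processing notes name Bowtie. The sources used here do not give its version, the build, the miRNA counting program or how reads fitting several miRNAs were treated. The authors deposited raw read counts per mature miRNA name, per the file headers, in 1 table whose 12 columns match the titles of the 12 libraries. Titles were used for grouping, and the 1d libraries whose descriptions name days 2 and 3 stayed in the 1d group. Of 1039 names 102 had no count in any library.

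Testing used edgeR 4.0.16 (R 4.3.3). filterByExpr kept 345 miRNAs (236 with pigeon names, 56 conserved, 53 predicted), and a robust quasi-likelihood model with 1 mean per age and TMM scaling was fitted over all 12 libraries. Fold changes are fitted ones. The SE of an edgeR fold change was derived as its absolute log2 value over the square root of that contrast's F statistic. Unless stated otherwise, an adjusted p beside a fold change over the later mean is that against each later age. All p-values are two-sided. For each miRNA the largest of the p-values of 1d against 14d, 28d and 2y was Benjamini-Hochberg adjusted over the 345, with 0.05 as the threshold. "Against the mean" is 1d less the equally weighted mean of the 3 later ages, and differences among the later ages are an F test in the same fit. Arm ratios were fitted with limma 3.58.1 on the 103 hairpins with both arms tested and adjusted over them. The scripts were tested on simulated counts. A count of 0 allows up to 3 counts, and this floor, like any count, covers counting error only, since reads carry no molecular identifiers. No 2 libraries of an age agreed within sampling noise. The labels do not say that replicate numbers pair the birds.

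miRNAs named by rule are the called ones without overlap and with at least 100 CPM at some age, up to 10 per direction, up to 2 per list, the 5 most abundant at 1d, the 3 hairpins with the largest change of arm ratio per direction, and opposite arms. Called miRNAs under 100 CPM, miR-15c and miR-26 as hairpins, and uncalled ones that are not opposite arms, were named after their values were seen. The comparison, the members and the 24 miRNA lists were chosen with earlier results of these data known. In 3 pairs (let-7a-3p with let-7e-3p, miR-30a-3p with miR-30e-3p, miR-103-3p with miR-107-3p) the counts stay within 10% in all libraries, and reads may be shared. Some miRNA families are not reported here. Alternatives were the total count, relative log expression, upper-quartile scaling, DESeq2 1.42.0, limma-voom, no filter and a stricter one (10 CPM in 3 libraries), the replicate block, 1d replicate 1 alone, the later ages pooled as 1 group, a pseudocount of 5, a minimum mean of 50 per arm, and each library left out in turn.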

Additional observations from a re-analysis of the deposited data

How the results depend on the processing

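The counts of miRNAs high and low against each later age were 15 and 13 as reported, those against the mean of the later ages 44 and 56, differences among the later ages 96, and called arm ratios 7. On the total count alone 2 were low against each age, and 108 were high and 14 low against the mean. Relative log expression gave 23, DESeq2 25 and the stricter filter 23 high against each age. With no filter 3 were low against each age, 23 low against the mean and 56 differed among the later ages. 1d replicate 1 alone gave 5 high and 3 low against each age, 18 high and 17 low against the mean and 2 arm ratios. Pooling the later ages as 1 group gave 26 high and 31 low against the mean, and a mean of at least 50 counts on both arms gave 3 arm ratios. The cause of these moves was not tested. The other alternatives, leaving out the most abundant miRNA before scaling among them, kept the counts within 1.5 times. Leaving out 1 library in turn gave 12 to 27 high and 5 to 16 low against each age, 33 to 62 high and 37 to 58 low against the mean, 65 to 112 among the later ages and 5 to 13 arm ratios. Of the 28 called miRNAs 16 (12 high, 4 low) were called in all 12 of these fits. For the named miRNAs and hairpins no called change over the mean of the later ages reversed its sign. Of their alternative values 96 lost the call and 12 gained one. Signs against single later ages were not part of this comparison. On the total count miR-125-5p changed sign against 28d and 2y, and miR-140-3p against 28d.

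The birds of a replicate number are not tied together by the labels. Over 18 pairs of libraries with 1 number, deviations from the age means correlated at -0.103 to 0.375 (median 0.0129, against -0.0312 for other numbers), and 6 of 12 libraries correlated best with their own number. The replicate block gave 13 high and 10 low against each age and 7 arm ratios, within 1.5 times of the counts without it. Depth limits rare miRNAs: a count of 0 allows 0.326 to 1.90 CPM, depending on the library.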

Other observations

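On the total count alone 7 more miRNAs were high at 1d against each later age than with TMM. Besides miR-16a-5p, miR-221-3p and miR-222a-5p these were 4 arms of low level, of which miR-301b-5p, miR-2131-3p and let-7f-3p have pigeon names and a 3p arm of miR-26 has a conserved one. miR-301b-5p, an arm of the family of miR-130 and miR-301, had 42.2, 43.9 and 34.6 CPM at 1d, against 4.67 to 24.4 CPM with a median of 11.8 CPM in the 9 later libraries (log2 fold change over the mean of the later ages 2.81 on the total count, adjusted p against each age = 0.00212, and 1.75 with an adjusted p of 0.106 with TMM). miR-2131-3p, of a miRNA described in birds, had 15.8, 18 and 17 CPM at 1d, against 1.04 to 8.22 CPM with a median of 5.92 CPM at the later ages (log2 fold change over the mean of the later ages 3.03 on the total count, adjusted p against each age = 0.0101, and 1.92 with an adjusted p of 0.327 with TMM). let-7f-3p had 44.4, 41.8 and 40.0 CPM at 1d, against 14.7 to 32.6 CPM with a median of 21.2 CPM over the later libraries (log2 fold change over the mean of the later ages 2.00 on the total count, adjusted p against each age = 0.0220, and 0.97 with an adjusted p of 0.30 with TMM). These were chosen after their values were seen, and their call depends on the scaling.

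A conserved name, miR-3156-5p, had its highest counts at 1d but was not called. It had 4643, 7923 and 3812 counts at 1d, 0 in all libraries of 14d and 28d, and 3, 709 and 0 counts at 2y (edgeR adjusted p against each age = 0.488). The 709 counts of 2y replicate 2 were the highest later value. This name had enough counts to be tested only through the 1d libraries, so it could come out only high or uncalled.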
